A study of Mus musculus with 69 samples.

Results

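The nuclear genes of oxidative phosphorylation (OXPHOS genes) were followed through RNA sequencing of pituitary, hypothalamus and ovary from female mice. They were chosen by symbol alone, as genes named for a subunit of complex I (Nduf), complex II (Sdh), complex III (Uqcr, Cyc1), complex IV (Cox4 to Cox8) or complex V (Atp5). The rule took 86 of 55964 gene IDs, of which 35 belong to complex I, 4 to complex II, 9 to complex III, 20 to complex IV and 18 to complex V. Atp5o is listed under 2 gene IDs, so there are 85 symbols, and Cox6c2 is annotated as a processed pseudogene. Ndufa4, though named for complex I, is counted with complex IV, to which it is now assigned. The rule uses symbols only, though it was chosen with earlier results of these data known. The question is whether these genes moved when the miR-200 control of Zeb1 was taken away.

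Complexes I to IV pass electrons from NADH and succinate to oxygen, with complexes I, III and IV pumping protons across the inner mitochondrial membrane, and complex V, the ATP synthase, uses the returning protons to make ATP. Most subunits are encoded in the nucleus and imported, and a small set at the core of the complexes is encoded by mitochondrial DNA. Some subunits of complex IV exist as paralogs, with a widely used form and a form restricted to tissues such as heart, skeletal muscle, lung or testis.

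All mice were on a C57BL/6J background and were sampled at proestrus. WT mice were compared with Zeb1_200H mice, in which 1 Zeb1 allele carries point mutations of the miR-200a and miR-200b sites in the 3′ UTR, and with Zeb1_200M mice, in which both alleles do. The young cohort were virgin females of 8 to 12 weeks, and the older cohort were females aged 28 to 36 weeks, taken after a breeding trial. The knock-in line came from a pair of embryonic stem cell clones, and the labels do not say which clone a mouse descends from. The young libraries were rRNA-depleted, stranded and read from both ends, whereas the older ones were poly(A)-selected, unstranded and read from 1 end, so age, breeding history and library type cannot be told apart and the cohorts were tested separately. There were 4 libraries per genotype in each tissue and cohort, except for the young WT pituitary and the older 200M pituitary and hypothalamus, with 3 each. One of the 3 young WT pituitary count columns carries a number that no sample title has, and it was used as a WT library from its name, without a replicate number.

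The family whose sites were removed reads its targets through bases 2 to 8 of the mature strand, which are in capitals here, and the sequences (RefSeq, GRCm38.p6) are shown because the site mutations in Zeb1 were aimed at these seeds.
mmu-miR-200a-3p: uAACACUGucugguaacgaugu
mmu-miR-141-3p: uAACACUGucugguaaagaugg
mmu-miR-200b-3p: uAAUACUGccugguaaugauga
mmu-miR-200c-3p: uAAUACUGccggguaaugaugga
mmu-miR-429-3p: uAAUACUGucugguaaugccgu
The first pair share the seed AACACUG and the other three share AAUACUG, which differs at 1 base. miR-200a, miR-200b and miR-429 lie together on chromosome 4 and miR-200c and miR-141 on chromosome 6.

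Zeb1, measured in CPM (read counts scaled to the library total, with TMM factors), followed the genotype labels in pituitary. In young pituitary it was 95.6 ± 2.57 in WT (SD, n = 3), 130 ± 4.09 in 200H and 138 ± 4.88 in 200M (n = 4 each), and in older pituitary it was 58.8 ± 3.15, 73.8 ± 2.64 and 85.2 ± 6.08 (n = 4, 4 and 3). In hypothalamus it was lower in 200M than in WT in both cohorts, with no overlap between the libraries. It was 198 ± 14.6 in 200M against 222 ± 3.155 in WT in the young cohort, and 113 ± 6.39 against 136 ± 9.40 in the older one. These are values only, without a test. Genes over 4000 nt had medians of -0.11, -0.26 and -0.16 relative to the WT mean in the older 200M hypothalamus libraries. In the young ones these medians were -0.02 to 0.01. The part of transcript length in the Zeb1 values was not tested. Libraries held 3321845 to 5143128 counts in young hypothalamus and 4527753 to 14655095 elsewhere. The pituitary libraries also differed in cell markers. Prl, the lactotrope hormone, ran from 132800 to 156000 CPM in young WT pituitary and from 37920 to 61900 in young 200M, and from 166600 to 211100 in older WT against 53420 to 71320 in older 200M. Pomc, Pax7 and Tbx19, markers of corticotropes and melanotropes, summed to 8847 to 12190 CPM in older WT and 11440 to 24470 in older 200M pituitary. Neuron markers summed to 763 to 844 CPM in young WT and 914 to 1031 in young 200M pituitary, and to 546 to 585 and 774 to 854 in the older cohort. None of the markers in these 3 lists was at 0 in pituitary, and their part in the results below was not tested. In whole tissue, fewer cells of a type and less RNA per cell cannot be told apart.

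Together the OXPHOS genes took a small share of each library, which differed between tissues and cohorts. In young pituitary they held 0.191 to 0.200% of counts in WT, 0.193 to 0.211% in 200H and 0.197 to 0.220% in 200M. In older pituitary the share was 0.461 to 0.555% in WT, 0.522 to 0.610% in 200H and 0.552 to 0.573% in 200M. The groups overlapped in both cohorts.
In CPM with TMM factors, which offset the large Prl transcript pool, the young pituitary sums were 2090 ± 88.5 in WT, 1994 ± 145 in 200H and 2012 ± 153 in 200M, and the older ones 5610 ± 567, 5391 ± 603 and 5332 ± 89.0. In older hypothalamus, however, all 3 200M libraries (10660, 11960 and 11300 CPM) lay above all 4 WT libraries (9026 to 10160 CPM). The young hypothalamus sums were 2540 ± 79.0 in WT and 2602 ± 248 in 200M, and the groups overlapped. The ovary sums were 2386 ± 98.4 in young WT and 2400 ± 161 in young 200M, and 8598 ± 224 and 8373 ± 624.5 in the older cohort, with overlap in each. As a share of counts, however, every young 200M ovary (0.238 to 0.246%) lay above every young WT ovary (0.228 to 0.237%).

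**Figure D1:**
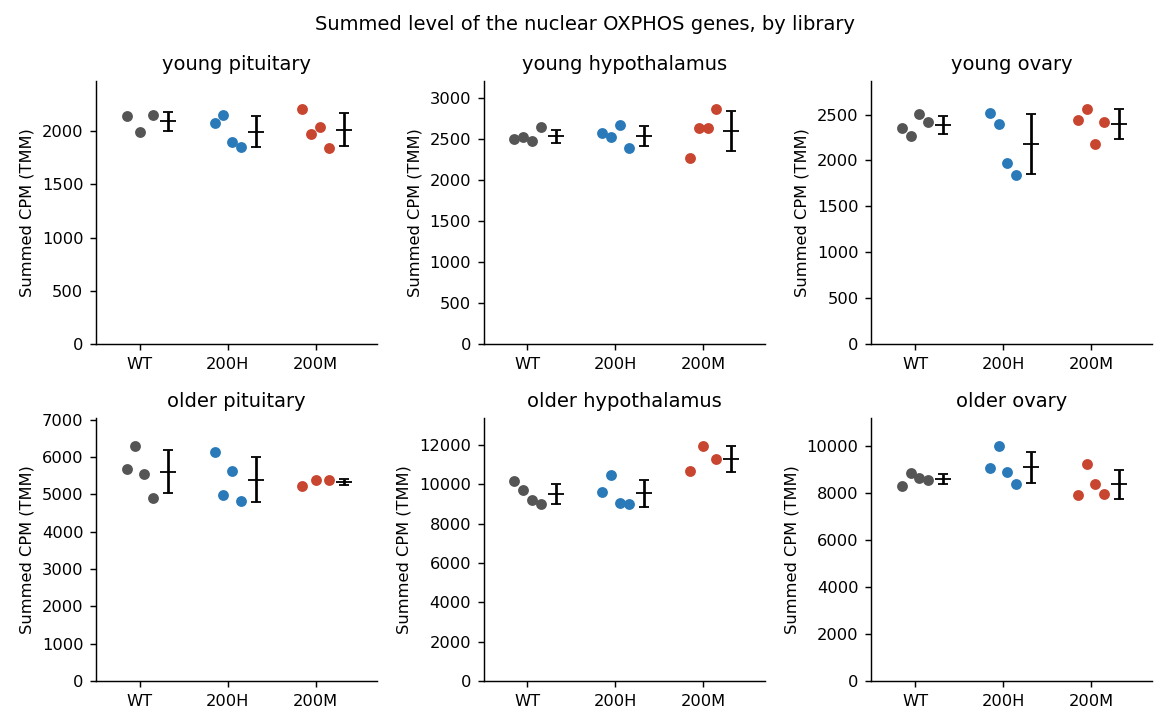
Summed CPM (TMM) of the OXPHOS genes in each library, by tissue, cohort (rows) and genotype, with the mean and SD beside the points and the vertical axis from 0. Only in older hypothalamus do the 200M libraries, at 10660 to 11960 CPM, lie wholly above the WT libraries, at 9026 to 10160 CPM.

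The pituitary is where Zeb1 was raised and where a larger share of genes was called than in the other tissues, yet few OXPHOS genes passed the test there. In young pituitary 0 were raised and 2 lowered of 79 tested in 200M against WT, beside 21.5% of all genes tested (11.5% raised and 10% lowered). In 200H against WT 0 were raised and 1 lowered of 79, beside 12.3% of all genes (6.56% raised and 5.72% lowered). In older pituitary 1 was raised and 2 were lowered of 79 in 200M against WT, beside 21.4% of all genes (11.7% raised and 9.77% lowered), and 0 of 80 passed in 200H against WT, beside 12.2%. For that last comparison 1 gene had an unadjusted p under 0.05 in edgeR and DESeq2 called 1 (Atp5e), while Atp5md and Atp5d came next in order of p (-0.29 and -0.31, edgeR adjusted p = 0.193 and 0.247). The genes that passed were Atp5d, Atp5e, Cox7a2l and Sdha. In 200M against 200H, 0 of 79 passed in either cohort by edgeR or DESeq2, with 0 at an unadjusted p under 0.05, beside 0.0383% of all genes in young and 0.121% in older pituitary. The smallest p there were those of Atp5j, Ndufb9 and Ndufv1 in the young cohort (edgeR adjusted p = 0.872 to 0.899) and of Cox7c, Ndufv3 and Sdhb in the older one (edgeR adjusted p = 0.554 to 0.626). Each of the called genes was tested on raw counts with the edgeR quasi-likelihood test, with Benjamini-Hochberg adjustment over all genes.

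Atp5d encodes the delta subunit of the ATP synthase, part of the central stalk that turns with the rotor. It lies at chr10:80138632-80145818 on the plus strand, with a median basic transcript of 931 nt. In young pituitary its CPM was 43.2, 55.2 and 43.8 in the WT libraries, 34.5, 35.0, 33.6 and 31.7 in 200M, and 36.2, 43.5, 30.5 and 31.6 in 200H. Every 200M library lay below every WT library, while 1 of the 200H libraries reached into the WT range. The fitted log2 fold change was -0.50 (SE 0.10), or 1.41-fold lower, in 200M against WT (edgeR adjusted p = 0.00186) and -0.43 (SE 0.13) in 200H against WT (edgeR adjusted p = 0.048). The 200M call held with the length trend described below removed (edgeR adjusted p = 0.00528), whereas the 200H call did not (edgeR adjusted p = 0.0756). The 200H call was also lost without TMM factors, at -0.31 and an edgeR adjusted p of 0.111, and when any 1 of 6 of the 7 libraries was left out (all but 200H replicate 2), at -0.30 to -0.50.
In older pituitary Atp5d was 122, 185, 142 and 101 CPM in WT and 106, 110 and 104 in 200M. The groups overlapped and the difference did not pass the test (log2 fold change -0.35, edgeR adjusted p = 0.127).

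Atp5e encodes the epsilon subunit, the smallest part of the same central stalk. It lies at chr2:174461072-174464105 on the minus strand, with a transcript of 421 nt. Young pituitary CPM was 9.20, 8.14 and 7.72 in WT, 5.90, 5.74, 5.47 and 5.18 in 200M, and 5.30, 7.64, 5.97 and 4.97 in 200H. Both mutant groups lay wholly below WT. The log2 fold change was -0.59 (SE 0.16) in 200M against WT (edgeR adjusted p = 0.0148), but it missed the threshold without WT replicate 1, at -0.52 (edgeR adjusted p = 0.0705), and without the filter on low counts, at -0.55 (edgeR adjusted p = 0.0566). In 200H against WT it was -0.49 and did not pass (edgeR adjusted p = 0.105).
In older pituitary Atp5e was 117, 125, 110 and 85.3 CPM in WT, 94.5, 74.8, 91.1 and 61.3 in 200H, and 78.5, 75.4 and 87.3 in 200M. All but the fourth WT library lay above every mutant library. The log2 fold change was -0.43 (SE 0.12) in 200M against WT (edgeR adjusted p = 0.0258) and -0.44 (SE 0.14) in 200H against WT, which did not pass (edgeR adjusted p = 0.0662). With the length trend removed the 200M value was -0.23 and did not pass (edgeR adjusted p = 0.117), nor did it without TMM factors (-0.26, edgeR adjusted p = 0.117) or without 200M replicate 1 or 2 or WT replicate 1, 2 or 3, at -0.37 to -0.42. In 1 fit of 3 genotypes the edgeR adjusted p was 0.0504.

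Cox7a2l encodes a protein of the COX7A family. It lies at chr17:83501918-83517330 on the minus strand, with a transcript of 1102 nt. In older pituitary it was 66.9, 72.2, 64.8 and 73.1 CPM in WT, 67.9, 65.5, 63.0 and 53.0 in 200H, and 55.4, 54.2 and 58.7 in 200M. The 200M libraries were all below the WT libraries, while the 200H libraries, at 53.0 to 67.9, overlapped the ranges of both. The 200M libraries differed from WT by -0.30 on the log2 scale (SE 0.08, edgeR adjusted p = 0.026), -0.20 with the length trend removed (edgeR adjusted p = 0.126) and -0.12 without TMM factors (edgeR adjusted p = 0.317). Leaving out any 1 of the 200M libraries or WT replicate 2 also ended the call, at -0.26 to -0.33. In young pituitary it was 66.0 to 71.5 CPM in WT and 54.9 to 68.1 in 200M, and did not pass (-0.13, edgeR adjusted p = 0.262).

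Sdha encodes the flavoprotein subunit of complex II, which oxidises succinate, and has the longest transcript of the set, 2900 nt. It lies at chr13:74322254-74350280 on the minus strand. In older pituitary it was 295, 319, 292 and 294 CPM in WT, 346, 332, 321 and 306 in 200H, and 355, 358 and 337 in 200M. All 200M libraries were above all WT libraries, and 1 of the WT libraries reached into the 200H range. The log2 fold change in 200M was 0.23 (SE 0.07), or 1.18-fold higher (edgeR adjusted p = 0.0378), and with the length trend removed the edgeR adjusted p was 0.0491. The call ended without the filter on low counts, at 0.22 (edgeR adjusted p = 0.152), and when any 1 of the 200M libraries or WT replicate 3 was left out, at 0.21 to 0.26. In young pituitary Sdha was 62.8 to 70.8 CPM in WT and 64.3 to 81.5 in 200M and did not pass (0.14, edgeR adjusted p = 0.243).

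**Figure D2:**
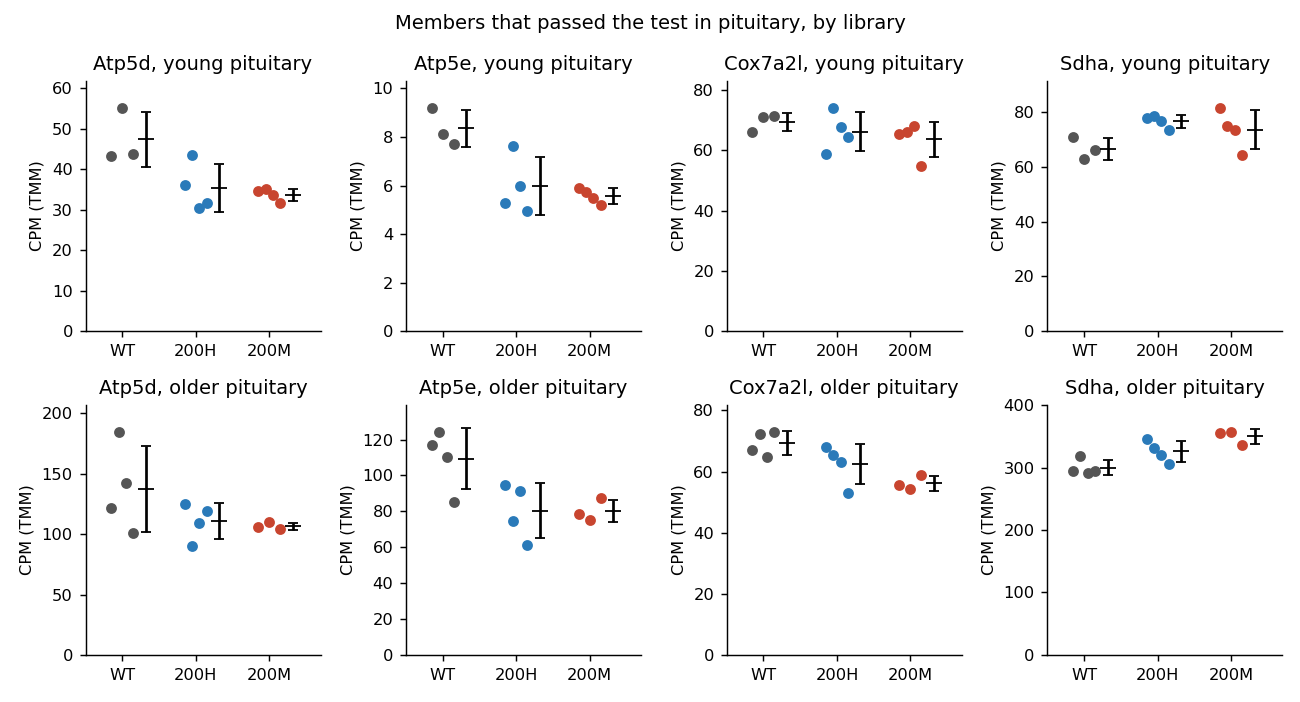
CPM (TMM) of Atp5d, Atp5e, Cox7a2l and Sdha in each pituitary library of the young (top) and older (bottom) cohort by genotype, with mean and SD beside the points and axes from 0. Atp5e sits lower in both mutant groups in both cohorts (young WT 7.72 to 9.20 CPM, young 200M 5.18 to 5.90), while Sdha sits higher in older 200M (337 to 358 CPM) than in older WT (292 to 319).

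The other subunits changed little in pituitary. By complex, the median of 200M against WT on the log2 scale was, in young pituitary, -0.05 for complex I (35 tested), -0.04 for complex II (4), -0.10 for complex III (9), -0.13 for complex IV (13) and -0.11 for complex V (18). Both called genes were in complex V. In older pituitary the medians were -0.09, -0.03, -0.12, -0.05 and -0.07 in the same order, with 0 of 35 called in complex I and 0 of 9 in complex III.
Over all OXPHOS genes the median was -0.09 in young 200M (24 above 0 and 55 below), -0.08 in young 200H, -0.08 in older 200M (19 above and 60 below) and -0.07 in older 200H, and over all genes tested it lay between -0.01 and 0.01. Without TMM factors the all-gene medians of these 4 comparisons were 0.12, 0.13, 0.16 and 0.16 and those of the OXPHOS genes 0.03, 0.04, 0.10 and 0.10, so the sign of the small shift depends on the scaling, while it lay below the all-gene median under both. Among the core subunits followed by name, Ndufs1 and Ndufv1 of complex I, Sdhb, Uqcrfs1, Cyc1, Cox5a, Atp5a1 and Atp5b were not called by edgeR in any of the 18 genotype comparisons. DESeq2 called 2 of them, Cox5a in older ovary (DESeq2 adjusted p = 0.0243) and Uqcrfs1 in older hypothalamus (DESeq2 adjusted p = 0.0496), both in 200M against 200H. With no TMM factor, 4 genes were called raised and 2 lowered in young 200M against WT, where the TMM fit called 0 and 2.

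A check of transcript length bears on these shifts. OXPHOS transcripts were short, at 231 to 2900 nt with a median of 711, and 60 of 86 were under 1000 nt, whereas the median over genes tested in young pituitary was 2543 nt. In older pituitary, 200M against WT, genes other than the OXPHOS set had a median log2 fold change of -0.19 at 501 to 750 nt and 0.10 above 6000 nt. The 29 OXPHOS genes of 501 to 750 nt had a median of -0.12. Genes of any function in the interquartile length range of the OXPHOS genes (540.5 to 1160 nt) had a median of -0.14, against -0.08 for the OXPHOS genes, and with each library's length trend removed the OXPHOS median became 0.04 with 1 raised (Sdha) and 0 lowered. In young pituitary the like-length median was -0.05, and the OXPHOS median with the trend removed was -0.04 with 2 lowered (Atp5d and Atp5e).

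Among the 18 genotype comparisons the largest shift of the whole set was in older hypothalamus. In 200M against WT, 80 of 81 OXPHOS genes tested lay above 0 and the median was 0.30, against 0.02 over all genes, and in 200M against 200H 79 of 81 lay above 0 with a median of 0.32. The medians of the complexes were 0.30 (I), 0.22 (II), 0.28 (III), 0.36 (IV) and 0.27 (V). In spite of this, 0 of 81 passed the edgeR test in either comparison, beside 0.00622% of all genes in the first and 0% in the second. At an unadjusted p under 0.05 there were 62 and 59 OXPHOS genes, and DESeq2 called 23 and 27, all raised. The like shares of all genes were 8.07% and 9.3% raised at an unadjusted p under 0.05, and 0.958% and 1.91% raised by DESeq2. The 3 of smallest p against WT were Uqcrh, the hinge protein of complex III (0.48, SE 0.10, edgeR adjusted p = 0.105), Atp5mpl, a small subunit of the ATP synthase (0.45, SE 0.10, edgeR adjusted p = 0.107), and Cox4i1, the main form of complex IV subunit 4 (0.36, SE 0.08, edgeR adjusted p = 0.111). In 200M against 200H the 3 were Atp5mpl (0.48), Ndufb10, an accessory subunit of complex I (0.43), and Uqcrh (0.52), each with an edgeR adjusted p of 0.14.
Uqcrh was 160, 150, 126 and 132 CPM in WT, 149, 156, 134 and 112 in 200H, and 173, 216 and 199 in 200M. Each 200M library was above every other library.

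The shift followed transcript length here too. Other genes had a median of 0.24 at 501 to 750 nt and of -0.24 above 6000 nt, and genes of like length to the OXPHOS set had a median of 0.21 without being part of it. The OXPHOS genes lay above the other genes in each length bin they filled, from 0.37 against 0.18 up to 500 nt to 0.10 against 0.04 at 2001 to 3000 nt, although every bin but that of 501 to 750 nt holds under 15 of them and the last holds 6. With the trend removed, the OXPHOS medians were 0.11 against WT and 0.10 against 200H, and 0 genes were called. The libraries differed in this trend. The OXPHOS median relative to the WT mean was 0.13, 0.45 and 0.26 in 200M replicates 1, 2 and 3, where the slope per doubling of length was -0.07, -0.18 and -0.09, and genes over 4000 nt had medians of -0.11, -0.26 and -0.16. In the 4 WT libraries the OXPHOS median ran from -0.09 to 0.08 and the slope from -0.02 to 0.02. Without 200M replicate 2 the median was 0.21 and 0 were called. The number called by edgeR was 3 without 200M replicate 1 and 4 without WT replicate 1. Neuron markers (Snap25, Syt1, Rbfox3, Tubb3) summed to 2375 to 2818 CPM in WT and 2415 to 2737 in 200M, and erythroid markers to 32.6 to 61.5 in WT and 67.9 to 185 in 200M. The part of these in the shift was not tested.

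**Figure D3:**
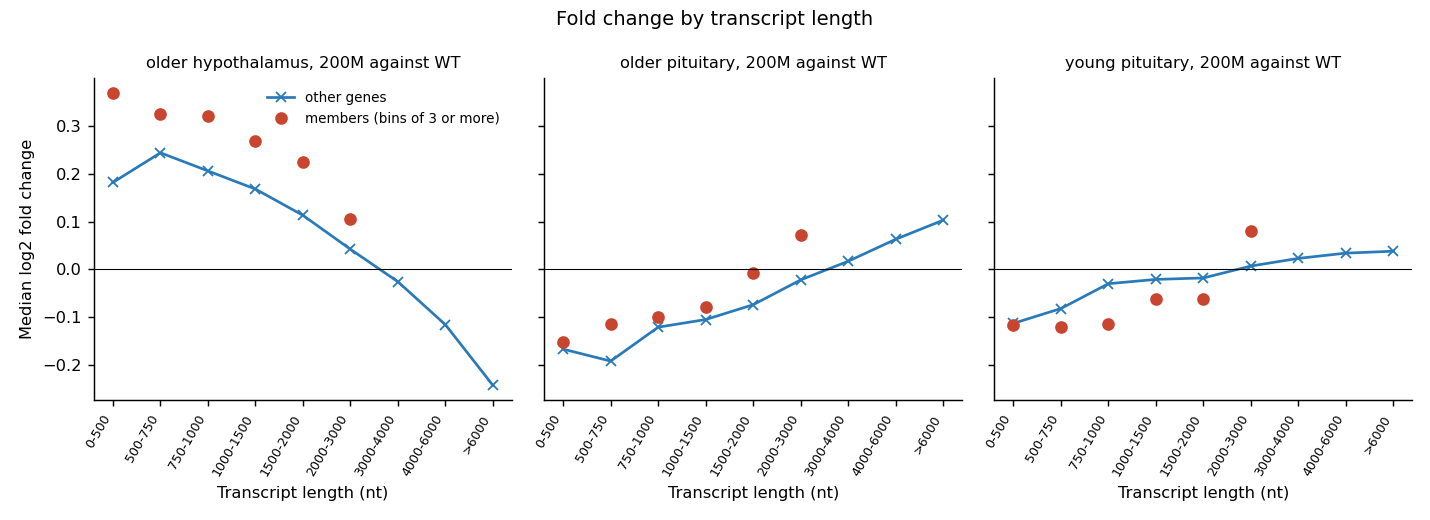
Median log2 fold change of 200M against WT by transcript length (nt, bins on the horizontal axis) for all other genes (blue line) and for the OXPHOS genes (red points, bins of 3 or more), in older hypothalamus, older pituitary and young pituitary. In older hypothalamus both fall with length, from 0.24 at 501 to 750 nt to -0.24 above 6000 nt for the other genes, and in the pituitaries the line rises with length.

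In 200H against WT the older hypothalamus showed no such shift (median -0.01, 39 above 0 and 42 below), and 0 of 81 were called by edgeR or DESeq2 with 0 at an unadjusted p under 0.05, beside 0% of all genes. Cox6b2, Ndufa5 and Cox7a1 came first there (0.45, -0.16 and 0.42). In young hypothalamus 0 of 77, 0 of 77 and 0 of 76 were called in 200M against WT, 200H against WT and 200M against 200H, beside 0.02%, 0.0202% and 0% of all genes. The unadjusted counts were 6, 2 and 3, and DESeq2 called 0. The medians were 0.06, 0.00 and 0.05. The smallest p in 200M against WT belonged to Ndufc2, an accessory subunit of complex I (-0.26, SE 0.08), Ndufa4 (0.30, SE 0.10), and Uqcrb of complex III (0.32, SE 0.12), with edgeR adjusted p of 0.811 to 0.812. In 200H against WT they were Ndufa12 (-0.47), Uqcrb (0.28) and Ndufb10 (0.41), and in 200M against 200H Ndufa11 (0.47), Ndufa12 (0.48) and Ndufb11 (0.43).

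In ovary no OXPHOS gene passed either. In the young cohort 0 of 80 were called by edgeR and by DESeq2 in each comparison, beside 2.58% of all genes in 200M against WT, 0.0051% in 200H against WT and 0% in 200M against 200H, with 5, 4 and 5 at an unadjusted p under 0.05. In the older cohort 0 of 81 were called by edgeR in each, beside 2.71%, 0% and 1.61% of all genes in the same order, with unadjusted counts of 5, 12 and 10 and with 1, 0 and 1 called by DESeq2. The medians were 0.03, -0.07 and 0.11 in young ovary and 0.02, 0.15 and -0.12 in older ovary. In older 200H ovary against WT 76 of 81 genes lay above 0, with a median of 0.15 beside 0.10 for other genes of like length. With the length trend removed the OXPHOS median was 0.10, beside 0.02 over all genes. Without 200H replicate 2 the median with the trend kept was 0.07 in place of 0.15. That library had the highest OXPHOS sum of its group (10010 CPM, against 8401 to 9068), and mtDNA genes held 4.31% of its counts against 1.80 to 2.28% in the other 200H ovaries. The part of these in the shift was not tested.
The smallest p in young ovary 200M against WT were those of Atp5g2, a gene of the proton-carrying c subunit (0.54), Ndufs6 (0.39) and Ndufc1 (0.18), all of edgeR adjusted p 0.275 or higher. In older 200M against WT the first was Cox6b2, the testis form of complex IV subunit 6b (0.90, SE 0.30, edgeR adjusted p = 0.171), followed by Uqcrfs1, the Rieske iron-sulfur protein of complex III (-0.28), and Cox5a, a subunit of complex IV (-0.25). Cox5a was also first in older 200M against 200H (-0.34, SE 0.09, edgeR adjusted p = 0.112, DESeq2 adjusted p = 0.0243), and Cox7a2 was also among the first (-0.47). In young 200H against WT the order was Cox6b1 (-0.33), Ndufb4 (-0.68) and Uqcrb (-0.28), and in young 200M against 200H Atp5a1, the catalytic-head alpha subunit (0.29), Ndufs8 (0.47) and Ndufb9 (0.41). In older 200H against WT it was Ndufv3 (0.28), Ndufs7 (0.23) and Ndufb7 (0.22), each with an edgeR adjusted p of 0.748.

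**Figure D4:**
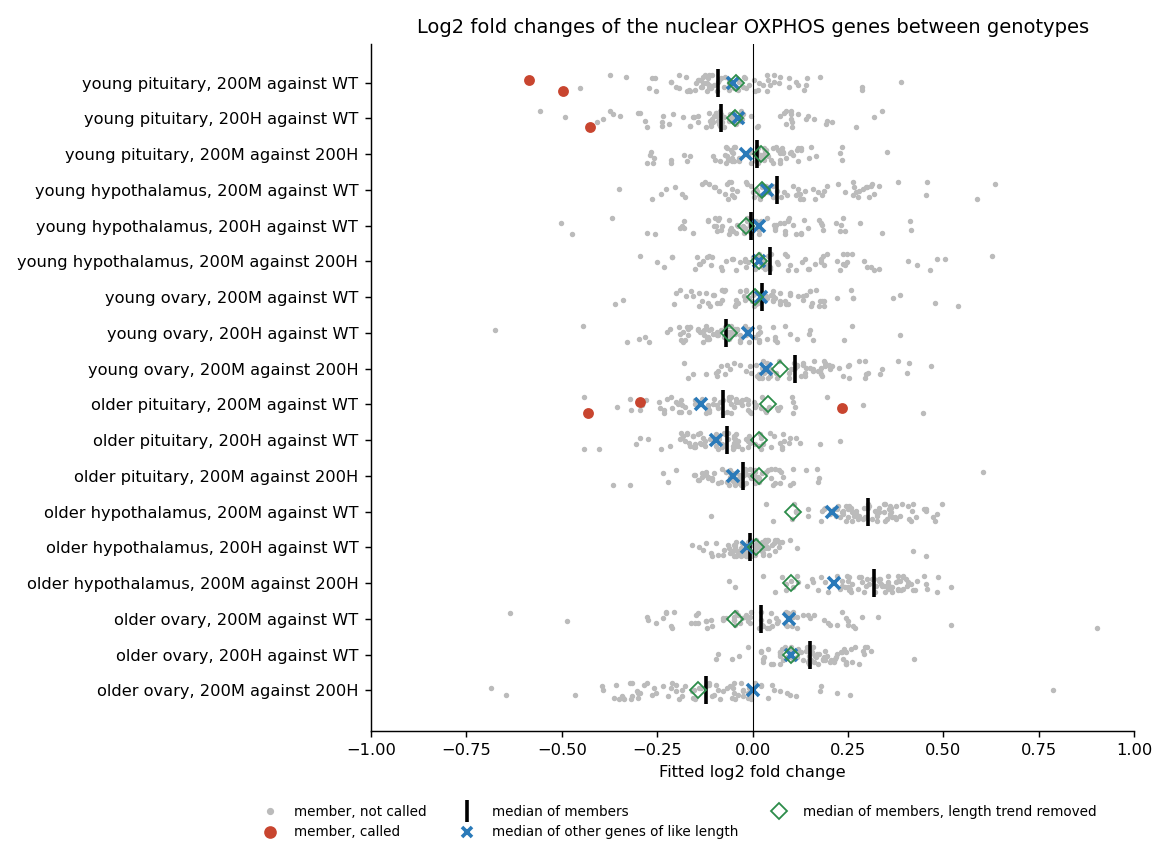
Fitted log2 fold change of each tested OXPHOS gene in the 18 genotype comparisons (grey points, red where called), with the median of the set (bar), the median of other genes of like length (blue cross) and the median of the set with the length trend removed (green diamond). The 2 older hypothalamus comparisons with 200M show medians of 0.30 and 0.32 that drop to 0.11 and 0.10 with the trend removed, and genes called by edgeR appear only in young and older pituitary.

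Whether the 200M effect differs between tissues was tested directly with an interaction term. In the young cohort, 1 of 77 OXPHOS genes had a higher and 2 a lower effect in pituitary than in hypothalamus beside 10.5% of all genes (6.64% higher and 3.88% lower), and 0 of 80 had a higher and 1 a lower effect in pituitary than in ovary, beside 10.1% of all genes (5.68% higher and 4.45% lower). Atp5d was lower in both, by -0.61 (SE 0.18, edgeR adjusted p = 0.0286) against hypothalamus and by -0.55 (SE 0.14, edgeR adjusted p = 0.0125) against ovary. Its CPM in young hypothalamus was 22.6, 23.7, 23.4 and 23.5 in WT and 18.8, 25.7, 22.9 and 32.3 in 200M, and in young ovary 28.8, 31.1, 34.1 and 35.4 in WT and 32.5, 33.4, 34.6 and 32.4 in 200M. The genotypes overlapped in both of these tissues, unlike in pituitary. With the length trend removed the edgeR adjusted p for Atp5d was 0.0569 against hypothalamus and 0.0359 against ovary. The call against hypothalamus was lost without TMM factors (-0.52, edgeR adjusted p = 0.0739), and that against ovary without the filter on low counts (-0.47, edgeR adjusted p = 0.101). Without WT pituitary replicate 2 neither held, at -0.48 and -0.41, and against hypothalamus the call also ended without 200M hypothalamus replicate 4, WT hypothalamus replicate 1 or 200M pituitary replicate 3, at -0.45 to -0.60.
Ndufa4 was 42.4, 42.5 and 36.0 CPM in WT and 36.8, 33.9, 33.4 and 35.8 in 200M young pituitary, but 47.0, 57.5, 59.4 and 57.5 in WT and 61.6, 77.0, 69.1 and 65.0 in 200M hypothalamus. The interaction was -0.51 (SE 0.14, edgeR adjusted p = 0.018), and the edgeR adjusted p was 0.0901 with the length trend removed and 0.0522 without TMM factors. Ndufc2 moved the other way, with an interaction of 0.38 (SE 0.12, edgeR adjusted p = 0.0353), from 64.5 to 73.4 CPM in WT and 67.3 to 84.6 in 200M pituitary and from 96.7 to 111 in WT and 82.0 to 93.8 in 200M hypothalamus. In hypothalamus its genotypes did not overlap. The Ndufa4 call was lost without 200M hypothalamus replicate 2 or WT pituitary replicate 1, and the Ndufc2 call without any 1 of 9 of the 15 libraries, at 0.32 to 0.39. Without the filter on low counts the Ndufc2 call was lost as well (edgeR adjusted p = 0.0762).

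In the older cohort 30 of 81 OXPHOS genes had a lower 200M effect in pituitary than in hypothalamus, and 0 a higher one, beside 17.5% of all genes (10.4% higher and 7.08% lower). The median interaction was -0.39 over the OXPHOS genes, -0.01 over all genes and -0.31 over genes of like length. With the length trend removed 2 remained called, Cox7a2l and Atp5e (edgeR adjusted p = 0.0272 and 0.0438), and without TMM factors 1 was called higher and 7 lower. Cox7a2l had an interaction of -0.68 (SE 0.14, edgeR adjusted p = 0.00274) and Atp5e one of -0.79 (SE 0.17, edgeR adjusted p = 0.00376). In older hypothalamus Cox7a2l was 80.2, 72.9, 62.8 and 65.5 CPM in WT and 85.7, 102 and 86.5 in 200M, and Atp5e was 72.8, 65.0, 62.8 and 63.7 in WT and 74.1, 95.7 and 83.0 in 200M. Both were above WT in every 200M hypothalamus and, apart from 1 WT library for Atp5e, below WT in every 200M pituitary. Both stayed called without each of the 14 libraries in turn.
The count of 30 fell to 10 without 200M hypothalamus replicate 2, to 10 without 200M pituitary replicate 2, to 12 without WT pituitary replicate 2, to 14 without WT hypothalamus replicate 4, to 17 without 200M pituitary replicate 1 or 3 and to 19 without 200M hypothalamus replicate 3. The next in order of p were Uqcrh (-0.71), Cox6a1, the common form of complex IV subunit 6a (-0.65), Atp5j2, the f subunit of the ATP synthase (-0.61), Sdhd, a membrane anchor of complex II (-0.44), Ndufb9 (-0.59), Ndufb11 (-0.53), Atp5md (-0.92), Atp5mpl (-0.56), Atp5j (-0.57) and Ndufb5 (-0.46). Against ovary 0 of 80 were called by edgeR and 0 by DESeq2, with 5 at an unadjusted p under 0.05, beside 5.77% of all genes. Cox5a, Cox7a2l and Ndufa5 had the smallest p (0.46, -0.42 and -0.79, edgeR adjusted p = 0.117 to 0.179). The older ovary was counted with another tool and annotation than the older pituitary. Within each tissue both genotypes were counted in the same way, and what the difference in counting leaves in the interaction was not tested.

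Many more OXPHOS genes were called between WT tissues than between genotypes. In young WT mice 8 of 77 OXPHOS genes were higher and 33 lower in pituitary than in hypothalamus (median -0.30), beside 72.2% of all genes called (36.8% higher and 35.4% lower). In older WT mice 6 of 81 were higher and 63 lower (median -0.61), beside 76.8% (37.6% and 39.2%). Young ovary against hypothalamus gave 3 higher and 42 lower of 78 (median -0.44), beside 76.7% (40.6% and 36.1%), and young ovary against pituitary 16 higher and 19 lower of 80 (median -0.02), beside 68.3% (35.6% and 32.7%). Without TMM factors, which moved the all-gene medians of the 2 ovary comparisons to 0.35 and 0.26 and that of the older pituitary to -0.22, ovary gave 13 higher and 26 lower than hypothalamus and 31 higher and 14 lower than pituitary, so the split in ovary depends on the scaling. Genes of like length had medians of 0.27, 0.13, 0.20 and 0.00 in these 4 comparisons, and with the length trend removed the OXPHOS medians were -0.51, -0.79, -0.68 and -0.08. OXPHOS genes were thus lower in pituitary and ovary than in hypothalamus while genes of like length were higher, and removal of the trend widened the difference.
By complex, the older WT sums in CPM were 2735 ± 153 in hypothalamus and 1624 ± 164 in pituitary for complex I, 1464 ± 79.2 and 743 ± 75.9 for complex IV, and 3402 ± 213 and 2151 ± 238 for complex V (n = 4 each). In young WT they were 808 ± 37.0 and 655 ± 28.5, 430 ± 12.7 and 374 ± 16.5, and 844 ± 32.03 and 693 ± 30.03 (n = 4 and 3). In each of these the libraries of the 2 tissues did not overlap. TMM factors for these sums were set within each tissue and cohort, so the sums are not scaled between tissues. The part of the large Prl pool of pituitary in the difference was not tested.

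Some OXPHOS genes went against this direction. The genotype and the tissue comparisons share the WT pituitary libraries, so their values for a gene are not independent. Atp5d was higher in young WT pituitary than in hypothalamus by 0.96 (SE 0.12, edgeR adjusted p = 1.06e-07) and lower in ovary than in pituitary by -0.74, and pituitary was likewise above hypothalamus for Cox7a2l by 0.75 (edgeR adjusted p = 1.15e-07) and Atp5e by 0.89 (edgeR adjusted p = 0.0147). In older WT pituitary Atp5e was higher than in hypothalamus by 0.85 (edgeR adjusted p = 5.63e-06), but Atp5d (0.15, edgeR adjusted p = 0.358) and Cox7a2l (0.11, edgeR adjusted p = 0.301) did not pass. Ndufv3, an accessory subunit of complex I (0.86 and 0.46), Atp5g1, another c-subunit gene (0.51 and 0.41), and Ndufa1, a small complex I subunit (0.46 and 0.53), were higher in pituitary in the young and the older cohort. The other 2 called higher in older pituitary were Atp5l (1.05) and Atp5g2 (0.75), and in young pituitary Ndufb11 (0.52) and Ndufa2 (0.58). Cox5a was among the most strongly lower in pituitary, by -1.17 among young and -1.81 among older mice, with Cox5b (-0.97 and -1.36), Cox4i1 (-0.78 and -1.19) and Sdha (-0.71 and -0.86), all called.
Atp5g3, the third c-subunit gene, was higher in young ovary than in pituitary by 1.08 (SE 0.07) and than in hypothalamus by 0.49 (SE 0.07), while Atp5g1 was lower by -1.55 and -1.08. Atp5g1 and Atp5g3, which encode the same mature c subunit, thus differed between ovary and the other tissues in opposite directions. Among the others most clearly higher in ovary than in pituitary were Atp5c1, the gamma subunit of the stalk (0.37), Cox4i1 (0.54), Cyc1, cytochrome c1 of complex III (0.45), Atp5b (0.30), Cox6b1 (0.34), Sdhb (0.38), Ndufa10 (0.24) and both Atp5o IDs (0.55 and 0.57). Lower were Cox8a (-0.69), Cox7a2l (-0.52), Ndufb2 (-0.79), Ndufb11 (-0.61), Uqcrfs1 (-0.47), Atp5md (-0.57), Ndufb10 (-0.64), Ndufv3 (-1.08), Ndufa1 (-0.96) and Atp5e (-0.92), besides Atp5d. Against hypothalamus the ovary was higher for Cox7c (0.65) and lower for Ndufa12 (-1.32), Ndufb2 (-1.35), Cox5a (-1.14), Cox5b (-1.05), Ndufv2 (-0.92), Ndufc2 (-0.87), Ndufb8 (-0.87), Cox8a (-0.84), Sdha (-0.75), Ndufs1 (-0.74) and Cox7b (-0.66). The rest of the 12 of smallest p among those lower in pituitary than in hypothalamus were Atp5o, Ndufa10, Ndufb8, Ndufa9, Ndufv2 and Cyc1 in both cohorts (-0.65 to -1.04 in young and -0.89 to -1.54 in older mice), with Atp5b (-0.58) and Ndufc2 (-0.65) in the young and Uqcrc1 (-1.10) and Cox6c (-1.04) in the older cohort. All of these were called.

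Levels of different genes were compared per kilobase of transcript. Atp5b, the catalytic beta subunit of the ATP synthase, was first or second in all 6 WT tissue sets. It stood at 126 ± 14.0 CPM per kb in young pituitary, 180 ± 8.79 in young hypothalamus and 177 ± 8.74 in young ovary, and at 329 ± 39.4, 597 ± 30.2 and 617 ± 21.1 in the older sets. Cox8a led in young pituitary (139 ± 14.3), within its spread of Atp5b, and Atp5g3 led in older ovary (684 ± 88.9), also within its spread of Atp5b. The median OXPHOS gene stood at 18.7 to 22.4 CPM per kb in the young sets and 57.2 to 99.5 in the older ones. Because the library types differ, these are given side by side only. So are the levels of the older ovary, which was counted with another tool and annotation than the other older tissues. In older pituitary Atp5e ranked second (260 ± 40.4 CPM per kb).

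The restricted isoforms of complex IV stood below their common counterparts, and some were near the floor. Others were well measured in ovary, where in the older cohort Cox6b2 had 1102 counts in total and Cox7a1 had 712. Cox4i1 was at 17.2, 28.1 and 28.4 CPM per kb in young WT pituitary, hypothalamus and ovary, whereas Cox4i2, the lung form, was at 1.0, 0.2 and 2.8. Cox4i2 was higher in ovary than in pituitary (1.31, SE 0.54, edgeR adjusted p = 0.0409), at 1.57, 2.66, 2.12 and 1.84 CPM in the WT ovaries and 0.409, 1.54 and 0.212 in the WT pituitaries.
Cox6a2, the form of heart and skeletal muscle, had 0 counts in every young and older WT pituitary library. In older WT hypothalamus it was 1.59, 1.18, 3.20 and 2.04 CPM, and in young WT hypothalamus 1.58, 1.05, 0.510 and 0.214. Taking 3 counts over the WT pituitary group as the limit that a count of 0 allows, Cox6a2 was at least 24-fold higher in older hypothalamus and at least 7.99-fold higher in young hypothalamus, per total count. Itgad overlaps it on the other strand, and the older libraries cannot tell the strands apart. Cox6b2 was at 8.2 CPM per kb in young ovary against 2.3 in pituitary and 2.4 in hypothalamus, and ovary was higher by 1.66 (edgeR adjusted p = 0.00261) and 1.47 (edgeR adjusted p = 0.00174). Cox7a1, the muscle form of subunit 7a, stood at 12.99 CPM per kb in older ovary, 3.0 in older pituitary and 4.1 in older hypothalamus, and at 1.1, 1.0 and 0.6 in the young tissues. Cox7a2, its common counterpart, stood at 115, 87.4 and 142 and at 30.8, 29.7 and 42.3. The older ovary was counted with another tool and annotation than the other older tissues and was not tested against them. Cox8b, Cox8c, Cox7b2 and the pseudogene Cox6c2 had totals of 0 to 100 counts in a tissue and cohort, and where the total was under 10 they were treated as not measured.

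**Figure D5:**
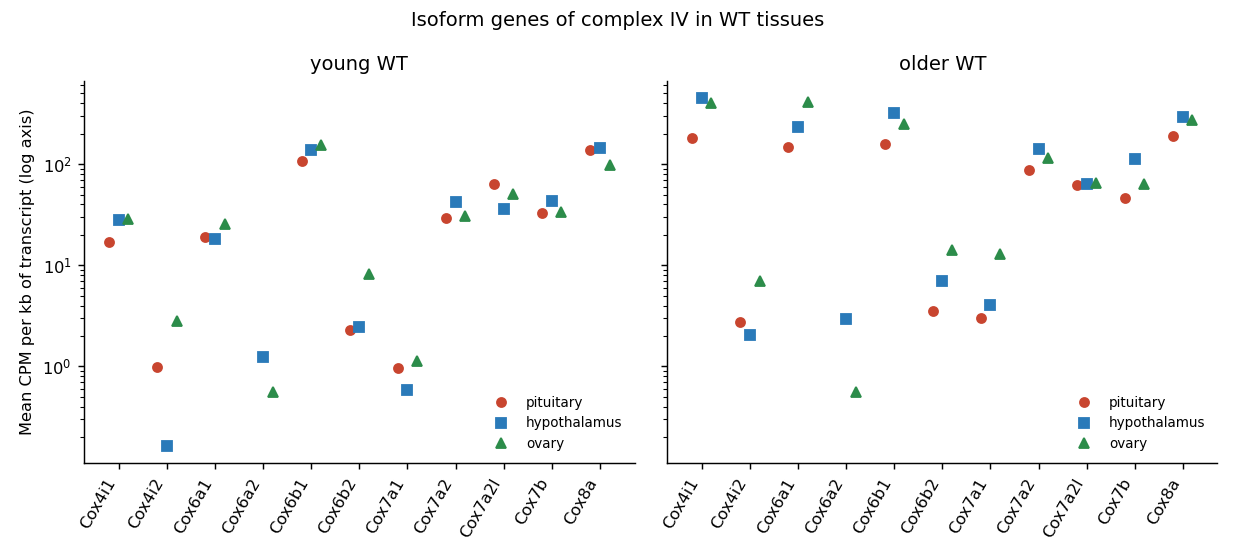
Mean WT level of complex IV isoform genes in CPM per kb of transcript (log axis), by tissue, in the young (left) and older (right) cohort. Genes with under 10 counts in a tissue and cohort or at 0 in WT are not drawn. Cox4i1, Cox6a1, Cox6b1 and Cox8a sit above Cox4i2, Cox6a2 and Cox7a1 in each tissue drawn, and Cox6a2 has no point in pituitary.

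Other genes of energy metabolism were followed from lists of their own. The counts for 200M against WT pituitary stand beside 21.5% of all genes called in young (11.5% raised and 10% lowered) and 21.4% in older pituitary (11.7% raised and 9.77% lowered), and shares near these are not particular to a list. Of the subunits encoded by mitochondrial DNA, 2 of 10 tested were raised and 0 lowered in young 200M against WT (mt-Nd5, 0.32, edgeR adjusted p = 0.00255, and mt-Co1, 0.18, edgeR adjusted p = 0.0027), and 2 of 7 were raised in older 200M (mt-Nd5, 0.41, edgeR adjusted p = 0.0138, and mt-Nd6, 0.44, edgeR adjusted p = 0.0241). mt-Nd5 and mt-Nd6 encode complex I subunits and mt-Co1 the catalytic subunit of complex IV. The older libraries cannot tell the strands apart, so reads from the other mtDNA strand may enter their counts. How far they do was not tested, and mt-Nd6 was not among the 2 called in the stranded young libraries. mtDNA genes together held 5.09 to 5.28% of counts in young WT and 6.05 to 7.15% in young 200M pituitary, and 0.798 to 1.18% and 1.30 to 1.35% in the older cohort. The genotypes did not overlap in either. As a percentage of all counts these shares also move with the size of the Prl pool.
Atpif1, the inhibitor of the ATP synthase, was lowered in young 200M (-0.44), young 200H (-0.39) and older 200M (-0.57) pituitary, the 1 gene called of 7, 7 and 6 tested subunits and carriers outside the symbol rule. Of 13 regulators of mitochondrial gene expression, 2 were raised and 1 lowered in young 200M, and 2 raised and 2 lowered in older 200M. The coactivator Ppargc1b rose by 0.48 and 1.03 and the orphan receptor Esrrg by 0.28 and 0.62, and the related coactivator Pprc1 fell by 0.48 and 0.44, while Twnk, the mitochondrial helicase, fell by 0.58 in the older cohort.
Of 45 assembly factors 0 were called in young 200M, and of 43 in older 200M 1 was raised (Ttc19, 0.41) and 1 lowered (Uqcc3, -0.36), both factors of complex III. Mitochondrial ribosomal protein genes gave 1 raised of 78 in young 200M (Mrps5) and 4 lowered of 76 in older 200M (Mrps21, Mrps23, Mrps24 and Mrpl37). In the citric acid cycle 1 was raised (Idh3a) and 3 lowered (Dlst, Ogdh, Suclg2) of 13 in young, and 2 raised (Idh3a, Sucla2) and 0 lowered in older 200M. Glycolysis gave 3 raised and 1 lowered of 18 in young and 5 raised and 0 lowered of 17 in older 200M. Eno2, the neuronal enolase, rose by 0.68 and 0.61, Pfkm by 0.39 and 0.39 and Gpi1 by 0.28 and 0.58 in both cohorts, whereas Ldha, the main lactate dehydrogenase chain of glycolytic tissue, fell by 0.53 in the young cohort.
The medians of these lists were 0.16, 0.05, -0.01, 0.07, -0.05, 0.01 and 0.07 in young 200M for mtDNA subunits, other subunits and carriers, regulators, assembly factors, mitochondrial ribosomal proteins, citric acid cycle and glycolysis, beside 0.00 over all genes. Outside pituitary, the genotype comparisons called mt-Nd2 (-0.36) and mt-Nd4 (-0.39) lowered in young 200M ovary against WT and Suclg1, of the citric acid cycle, lowered in older 200M ovary against 200H (-0.44), and no other gene of these 7 lists.

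Promoters were searched for motifs because ZEB1 binds E-boxes and because OXPHOS genes are known for NRF1 and ETS sites. The paper gives the ZEB1 consensus as CAGGTR, with A or G last. Only the form ending in G, which reads CACCTG on the other strand, was searched. A window of 250 bases before to 50 after the RefSeq start (GRCm38.p6) was at hand for 69 of the 86 gene IDs, which share 68 promoter entries. On either strand, the E-box CACCTG lay in 20.6% of the 68 and in 22.6% of 27025 genes, the NRF1 motif (GCGCA and GCGC with any 1 base between) in 25.0% and 5.19%, the ETS motif CCGGAAG in 25.0% and 9.93%, the YY1 motif AAGATGGCG in 10.3% and 1.64%, and the estrogen-related receptor (ERR) motif AAGGTCA in 11.8% and 5.38%. The end of the ETS motif can overlap the start of the YY1 motif, which happened in 0 of the 68. The windows around matches in called genes are shown with the motif in capitals, on the strand of the gene. Atp5d has 1 E-box, which lies 204 or 244 bases before its alternative starts, and Atp5e has 2. Cox7a2l has no match to any of the 5 motifs.
Atp5d E-box, chr10:80142061-80142086: gaatgcttggCACCTGatatcaagcc
Atp5e E-box, chr2:174464248-174464273: ctgcccgcagCACCTGgaaggtgacc
Atp5e E-box on the opposite strand, chr2:174464209-174464234: ctcgctttccCAGGTGtctctacggc
Atp5e ERR on the opposite strand, chr2:174464061-174464087: tactcaggccTGACCTTcctgctgccg
Atp5e ETS on the opposite strand, chr2:174464187-174464213: acggccacagCTTCCGGtagccgctcg
Sdha NRF1, chr13:74350231-74350260: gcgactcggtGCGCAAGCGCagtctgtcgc
Sdha NRF1, chr13:74350276-74350305: ggggcgtgttGCGCAGGCGCagaatcttcc
Sdha NRF1, chr13:74350319-74350348: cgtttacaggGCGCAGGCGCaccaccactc
Sdha, the called gene that rose, has 3 NRF1 matches and no CACCTG on either strand. The 2 lowered ATP synthase genes have CACCTG, as 14 OXPHOS promoters do, whereas Cox7a2l, also lowered, has none. A link between these matches and the direction of change was not tested. A match is a description of letters and not evidence of binding.

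Some OXPHOS genes have near-identical copies, which bears on their counts. Of 85 with a coding transcript, 60 shared under 10% of their 50-base words with transcripts of any other gene (median 1.88%) and 2 shared over 50% (Atp5l, 84.8%, and the Atp5o ID missing from the older pituitary and hypothalamus tables, 89.8%). Among the called genes the shares were 0% for Atp5d, Atp5e and Sdha, and 17.8% for Cox7a2l, shared with 1 pseudogene. The levels of Atp5l and Atp5o are therefore uncertain.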

How the data were processed

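RNA sequencing of 69 libraries was analysed from tables of raw read counts per gene. Per the study's methods, the authors aligned reads to mm10 with STAR 2.7.1a and made the deposited counts with HTSeq 0.9.1 in unstranded mode on an Ensembl GRCm38 annotation for older pituitary and hypothalamus, and with featureCounts on GENCODE basic genes for the rest, unstranded for older ovary and stranded for the young cohort. The tables also hold the authors' DESeq2 fold changes and p-values, which were not used. Of the libraries, 66 stood in 2 tables with 0 genes differing, and 3 count columns of no listed sample were not used.

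Genes passing filterByExpr were tested on the counts with the edgeR 4.0.16 quasi-likelihood test (R 4.3.3, TMM factors, Benjamini-Hochberg adjusted p under 0.05 over all genes tested), on the 2 genotypes compared alone. Interactions of genotype and tissue and WT tissues were fitted within a cohort, over genes listed in both tables. For sums and CPM, TMM factors were set within each tissue and cohort. Genes were named where they are isoform or core subunits, where called (the 12 of smallest p in each direction), and otherwise where among the 3 of smallest p. A gene that this rule names is not reported here. Lengths are the median basic transcript of another GENCODE release on GRCm38 (M21 was at hand). A length trend was removed as a lowess curve (span 0.3) per library. Alternatives were RLE factors, no TMM factor, DESeq2 1.42.0, no filter, the length trend removed, a replicate block, 1 fit of 3 genotypes and leaving out each library. The scripts were tested on simulated counts. The OXPHOS rule and all lists were chosen with earlier results of these data known. Per the study's methods, the libraries of a group came from different mice. The labels do not say whether libraries of different tissues came from the same mouse. The main interaction and WT tissue fits treated them as independent.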

Additional observations from a re-analysis of the deposited data

Results flagged for a closer look

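The 200M effect differed between tissues for some OXPHOS genes by the interaction test. Between young pituitary and hypothalamus 3 were called, Ndufc2 (0.38), Ndufa4 (-0.51) and Atp5d (-0.61), beside 10.5% of all genes, and between young pituitary and ovary 1 was, Atp5d (-0.55), beside 10.1%. Between older pituitary and hypothalamus 30 were called beside 17.5% of all genes, and the 12 of smallest p were Cox7a2l (-0.68), Atp5e (-0.79), Uqcrh (-0.71), Cox6a1 (-0.65), Atp5j2 (-0.61), Sdhd (-0.44), Ndufb9 (-0.59), Ndufb11 (-0.53), Atp5md (-0.92), Atp5mpl (-0.56), Atp5j (-0.57) and Ndufb5 (-0.46). With the length trend removed 2 of the 30 were called, Cox7a2l and Atp5e.

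In 113 groups of 4 libraries, the library farthest out was compared with the rest by Dixon's ratio, and 7 passed its 95% limit, where chance gives about 1 in 20. Sdha was 318.7 CPM in WT replicate 2 of older pituitary and 292.2 to 295.4 in the others. Ndufa4 was 47.05 CPM in WT replicate 1 of young hypothalamus against 57.48 to 59.37. Among low isoforms, Cox6a2 was 0.07496 CPM in 200M replicate 3 of young pituitary and 0 in the others, which is 1 read among 5 counts over all young pituitary libraries and under the 10 counts treated as measured. Cox4i2 was 0.9906 CPM in 200H replicate 3 of older pituitary against 2.226 to 2.326. Cox7a1 was 0.8547 CPM in 200M replicate 3 of young ovary against 0.2988 to 0.3665, and 3.678 in WT replicate 1 of older ovary against 6.166 to 6.57. Cox6b2 was 19.42 CPM in 200M replicate 2 of older ovary against 8.189 to 9.719. These are values only, and their causes were not tested.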

How the results depend on the processing

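Of 192 recounts of called OXPHOS genes under another setting, 164 stayed within 1.5 times, as did 130 of 144 medians within the spread between libraries. A count that stayed at 0 is among those kept, and most genotype comparisons had 0 called at first. Of 1266 refits of named genes, 72 lost and 31 gained a call and 13 changed sign. The causes of the changes below were not tested beyond what each setting alters.

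Without TMM factors, the called count went from 2 to 6 in young pituitary 200M against WT (4 raised), from 1 to 2 in 200H against WT (2 raised, 0 lowered) and from 0 to 1 in older 200H against WT. The interaction counts went from 3 to 1 (young pituitary and hypothalamus), 30 to 8 (older) and 0 to 1 (older pituitary and ovary, Cox5a). The medians became 0.03, 0.039, 0.098 and 0.098 for young 200M and 200H and older 200M and 200H pituitary, and 0.074 in young 200M ovary. Summed CPM became 1971 in young WT and 5607 in older 200M pituitary. Among WT tissues Cox7a2 (0.092) and Cox7b (0.082) changed sign in ovary against pituitary, Sdhb (0.124) and Cox6b1 (0.148) in ovary against hypothalamus, and Cox7a2l (-0.119) in older pituitary against hypothalamus, none of them called at first.

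With the length trend removed, the counts were 0 in young 200H and 1 in older 200M pituitary, and 1, 2 and 1 for the 3 interactions just named. The medians were 0.041 in older 200M pituitary and 0.107 and 0.101 in older 200M hypothalamus against WT and 200H. Cox6a1 became -0.262 in young WT pituitary against hypothalamus and -0.088 in ovary against hypothalamus, Cox7a2l -0.02 in the latter, and Sdha -0.122 in ovary against pituitary. Sdha there was -0.003 with RLE factors and -0.031 with DESeq2, from 0.002.

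Without the filter the counts were 1 in young 200M, 5 in older 200M and 2 in older 200H pituitary, 31 and 40 in older 200M hypothalamus against WT and 200H, and 0 for the interaction of young pituitary and ovary, and Uqcrfs1 was 0.03 in young WT pituitary against hypothalamus, from -0.03. DESeq2 gave 23 and 27 in older 200M hypothalamus and 1 each in older 200H pituitary, older 200M ovary against WT and against 200H. One fit of 3 genotypes gave 1 in older 200H pituitary.

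With a replicate block, though in no genotype comparison did every same-numbered pair's deviations correlate over 0.1 (correlations of 0.018 and 0.059 in young pituitary 200M against WT and -0.12 to -0.02 in older), the counts were 0 in young 200H, 9 in older 200M, 1 in older 200H pituitary and 0 for the interaction of young pituitary and ovary. Among the called genes, edgeR adjusted p with the block was 0.113 for Atp5e in young 200M, 0.163 for Atp5d in young 200H, 0.0676 for Sdha and 0.0635 for Cox7a2l in older 200M pituitary, and 0.132 for Ndufc2 and 0.0506 for Atp5d in the young interactions with hypothalamus and ovary. With the trend also removed it was 0.103 for Sdha. The young pituitary medians were 0.002 for 200M and 0.0 for 200H, and Sdha was -0.022 in WT ovary against pituitary. The block with the trend removed gave medians of 0.037 and 0.027 in young 200M and 200H pituitary and 0.103 and 0.114 in older 200M hypothalamus, and 0 called in young 200H pituitary.

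Leaving out 1 library moved 8 called counts by over 1.5 times. Young pituitary 200M against WT gave 1 without WT replicate 1 and 4 without WT replicate 2, and 200H against WT 0 to 2. Older pituitary 200M against WT gave 0 without 200M replicate 1 or 2, 1 without 200M replicate 3 or WT replicate 2 or 3, and 12 without WT replicate 4. Older pituitary 200H against WT gave 1 without 200H replicate 1 or WT replicate 4. Older hypothalamus 200M against WT gave 0 to 4. The young interactions gave 1 to 4 (1 without 200M hypothalamus replicate 2 or 4 or WT pituitary replicate 2) and 0 to 2 (0 without WT pituitary replicate 2), and the older one 10 to 39. Near-zero WT differences changed sign, with Uqcrfs1 at -0.159 to 0.069 and Cox6a1 at -0.115 to 0.187 in pituitary against hypothalamus, and Sdha at -0.042 to 0.062 and Cox5a at -0.072 to 0.211 in ovary against pituitary. All 138 medians stayed within the spread between libraries. Median standard errors of 200M against WT on the log2 scale were 0.163 in young hypothalamus and 0.131 in young pituitary.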
